A study of Mus musculus with 6 samples.

Results

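Genes of the Wnt pathway were examined in whole mouse kidneys in which the active part of the Notch1 receptor had been switched on in tubule epithelial cells. A gene was included if its symbol starts with Wnt, Fzd, Sfrp or Dkk followed by a number, or if it is one of a short list of co-receptors, antagonists, receptor regulators and nuclear factors of the pathway. This gave 53 genes of the 19937 measured. They comprise 19 Wnt ligands, 12 Frizzled receptors and co-receptors, 10 secreted antagonists or antagonist family members, 8 receptor turnover and intracellular regulators, 3 TCF/LEF factors and Fzd10os, a transcript that takes its name from the neighbouring Fzd10 and encodes no Frizzled receptor. Tcf7, which the rule also names, was not analysed here. The samples were 3 kidneys of wild-type littermates, called control, and 3 kidneys of NICD1 mice with the genotype Pax8rtTA TREICNotch1, each on its own Affymetrix array. In NICD1 mice a tetracycline-dependent activator under Pax8 control directs the Notch1 intracellular domain to tubule epithelium, while RNA was taken from the whole organ with its stroma, vessels and immune cells. The inducing agent, its duration, and the age and sex of the mice are not given in the sources used here. The labels do not describe controls that carry a single transgene. The labels number the 3 samples of each group without further detail. The p-values weigh the group difference against the spread between these samples, with variances moderated over all genes. In whole-kidney RNA, fewer cells of a type and less RNA per cell cannot be told apart.

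Wnt proteins are secreted, lipid-modified ligands that bind Frizzled receptors together with the co-receptors Lrp5 or Lrp6. In the canonical branch this stops the Axin and Apc complex from destroying beta-catenin, which then enters the nucleus and activates genes with TCF/LEF factors, among them feedback inhibitors such as Axin2. Non-canonical branches act through planar cell polarity or calcium and change cell shape and movement. In the kidney, Wnt9b and Wnt4 drive nephron formation, Wnt11 branching of the ureteric bud and Wnt7b growth of the medulla, and the adult organ reuses parts of this programme after injury.

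The data were deposited as log2 expression per probe set, a scale on which a difference of 1 is a doubling, and every difference below is NICD1 minus control. A gene was called changed at an adjusted p under 0.05 in limma, a linear model per gene, with Benjamini-Hochberg adjustment over all 19937 genes. Notch1 itself was 6.56 ± 0.11 (SD, n = 3) in controls and 10.19 ± 0.18 (SD, n = 3) in NICD1 kidneys, with all NICD1 arrays above all control arrays, as labelled. The median of all genes lay between 5.26 and 5.29 on control arrays and between 5.38 and 5.41 on NICD1 arrays. Centring the arrays on their medians moved the median difference of all genes by -0.123, from 0.015 to -0.108, farther from 0. Quantile normalization put it at -0.009. Small differences are therefore open to the choice of scaling. Of the 53 Wnt pathway genes, 23 (43.4%) lay under that array median on all 6 arrays, against 43.9% of all genes. RMA, the method behind the values, compresses differences of such dim genes, and no detection calls were available.

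In NICD1 kidneys several ligands and receptors of the Wnt pathway were higher, and most of the antagonists that changed were lower. Of the 53 genes, 17 rose (32.1%), where 17.8% of all genes were called higher, and 5 fell (9.43%), where 14.9% of all genes were called lower. The same shares of all genes apply to the counts by role, list and marker set below, unless another fit is named. At least 2-fold higher were 5 of the 53 (9.43%), namely Dkk3, Fzd3, Wnt7b, Fzd7 and Fzd6, against a background of 4.65% of all genes. A fall of at least 2-fold was measured for 3 of the 53, namely Sfrp1, Sostdc1 and Sfrp2, a share near the 5.3% of all genes. The median difference of the 53 genes was 0.14 log2, and that of all genes 0.015 log2. All 3 NICD1 arrays lay above all 3 control arrays for 20 of the 53 genes, a larger share than the 23.7% of all genes. They lay below for 8 of the 53, a smaller share than the 19.7% of all genes. After centring of the arrays 15 rose and 8 fell, so the share of rises among called genes went from 77.3% to 65.2%, and that of all genes from 54.4% to 39.4%.

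**Figure D1:**
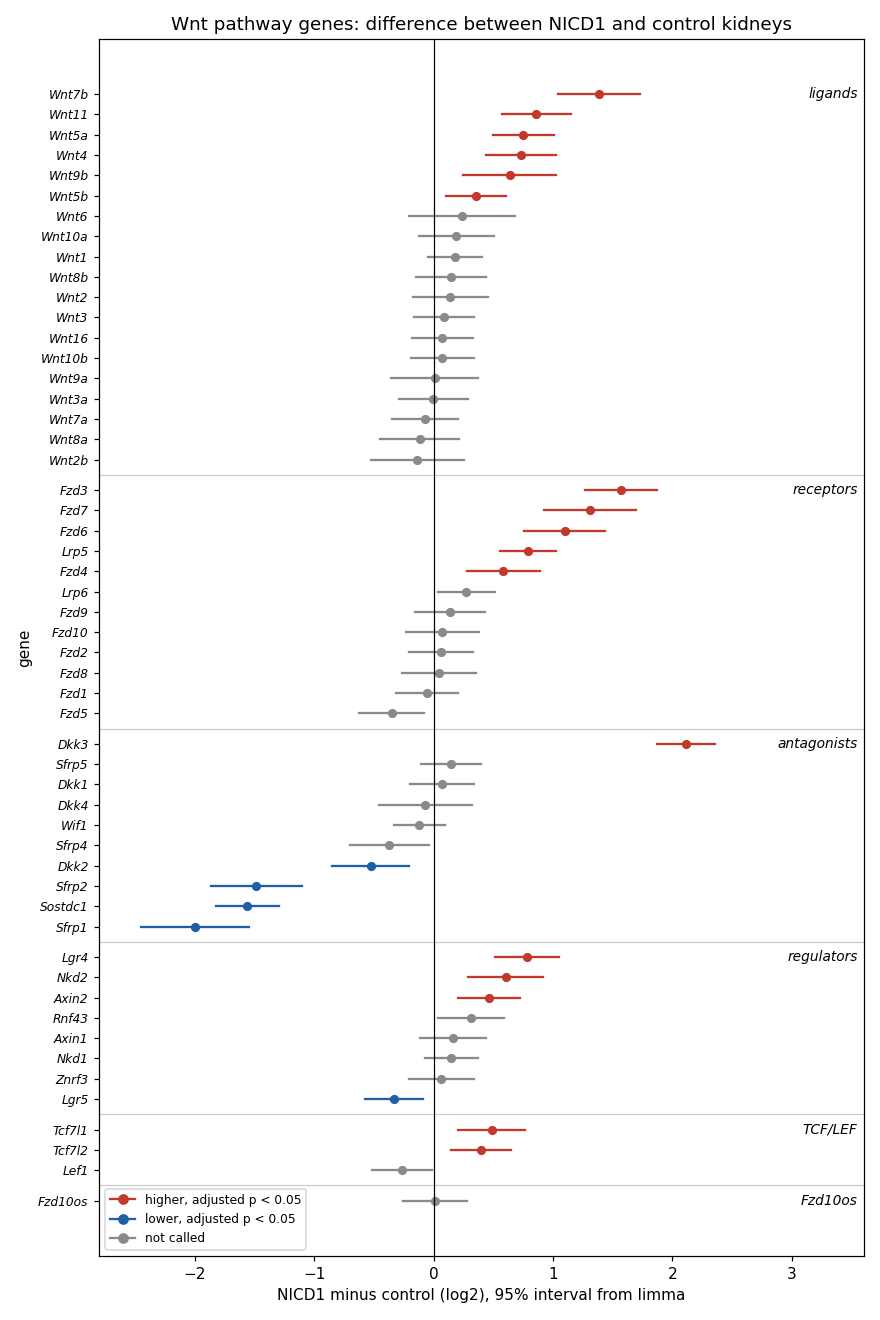
Difference between NICD1 and control kidneys (log2, horizontal axis) for each of the 53 genes (vertical axis), grouped by role, with the 95% interval from limma as a line and colour for genes called at adjusted p under 0.05. No Wnt ligand and no Frizzled or Lrp gene was called lower, while 4 of the 5 called antagonist genes lie left of 0 and Dkk3 lies farthest to the right at 2.11.

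Of the 19 Wnt ligands, 6 rose (31.6%, against 17.8% of all genes), 0 fell (against 14.9%) and 13 did not pass in limma. At an unadjusted p under 0.05, 0 were lower. The 6 were Wnt7b, Wnt11, Wnt5a, Wnt4, Wnt9b and Wnt5b. The largest rise was that of Wnt7b, a ligand of the collecting duct that signals to the medullary stroma. Wnt7b read 5.41, 5.13 and 4.92 on control arrays 1 to 3 and 6.78, 6.42 and 6.41 on NICD1 arrays 1 to 3. The groups were well apart, and the difference was 1.38 log2 (SE 0.15, adjusted p = 0.000106), a 2.61-fold rise.

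Wnt11, a mostly non-canonical ligand made at the tips of the ureteric bud, read 5.21, 5.14 and 4.96 in controls and 5.78, 5.94 and 6.18 in NICD1 kidneys. All NICD1 values were above all control values, with a difference of 0.86 (SE 0.13, adjusted p = 0.000673). Wnt5a, the prototype of non-canonical ligands and a product of stromal cells in many organs, read 6.10, 5.85 and 5.78 in controls against 6.64, 6.63 and 6.72 in NICD1 kidneys. Its NICD1 arrays were tightly grouped (6.66 ± 0.050, SD, n = 3), and it differed by 0.75 (SE 0.11, adjusted p = 0.000741). Its close relative Wnt5b rose less, from 6.12 ± 0.083 to 6.47 ± 0.16 (0.35, adjusted p = 0.0376). That call was lost in 5 of the 6 fits that leave out an array, the exception being the fit without NICD1 replicate 1. It was also lost after centring (0.23, adjusted p = 0.139), after quantile normalization (0.29, adjusted p = 0.105) and with the replicate block (adjusted p = 0.081).

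Wnt4, the ligand that turns mesenchyme into nephron epithelium, read 5.70, 5.64 and 5.37 in controls and 6.41, 6.12 and 6.39 in NICD1 kidneys. The difference was 0.73 (SE 0.13, adjusted p = 0.00187). Wnt4 was the only one of the 53 genes with a second probe set of its own, which read 4.85, 4.84 and 4.82 in controls and 5.22, 5.22 and 5.61 in NICD1 kidneys, again without overlap. Wnt9b, made by the ureteric duct and its derivatives, spread more widely: 5.21, 4.59 and 4.96 in controls and 5.78, 5.32 and 5.56 in NICD1 kidneys. Its difference of 0.64 (adjusted p = 0.0186) dropped out of the calls without control replicate 2 (0.47, adjusted p = 0.0680) or NICD1 replicate 1 (0.52, adjusted p = 0.0570).

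The 13 other ligands were Wnt1, Wnt2, Wnt2b, Wnt3, Wnt3a, Wnt6, Wnt7a, Wnt8a, Wnt8b, Wnt9a, Wnt10a, Wnt10b and Wnt16, with differences between -0.14 and 0.24. The lowest adjusted p among them was that of Wnt1, best known from the developing brain, at 0.228. Taken one by one, their 95% intervals reached no lower than -0.53 and no higher than 0.68 log2. Of all 19 ligands, 11 lay under the array median on all 6 arrays, so a change from a very low level may not show on this scale. Markers of the collecting duct principal cell, a source of Wnt7b, were mixed: of 7 measured, 2 rose (Scnn1g and Scnn1b), 2 fell (Aqp3 and Aqp2) and 3 did not pass. Their summed level on the linear scale ranged from 1465 to 1759 in controls and from 940.2 to 2074 in NICD1 kidneys, which overlap. Their part in the ligand values was not tested.

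The DNA just before the start site of 2 of these ligands holds a motif read by TCF/LEF factors, and it is shown because both genes rose. Promoter entries from RefSeq (GRCm38.p6) were matched by symbol to 34 of the 53 genes, with 42 annotated starts, and to 13 of the 22 called genes. The 250 bases before each start were searched on both strands for ATCAAAG and TTCAAAG, forms of the TCF/LEF motif, and for GTGGGAA, a form of the motif of Rbpj, the factor through which active Notch1 reaches DNA. ATCAAAG was found in 2 of the 42 windows (4.76%), near the 3.21% of all 32851 windows of this kind. They lie before 1 of 2 Wnt11 starts and 1 of 3 Wnt5b starts. TTCAAAG stood in 1 of the 42 windows (2.38%), against 4.46% of all windows. That window belongs to Dkk1, whose difference was 0.068 (adjusted p = 0.741). The motif is in capitals in these windows, written 5′ to 3′ on the strand of the gene. In Wnt11 it begins 51 bases before the start, and in Wnt5b it is read as CTTTGAT because it lies on the opposite strand, 71 bases before the start. A match describes the letters and does not show that a factor binds.
Wnt11, chr7:98834862-98835111, plus strand: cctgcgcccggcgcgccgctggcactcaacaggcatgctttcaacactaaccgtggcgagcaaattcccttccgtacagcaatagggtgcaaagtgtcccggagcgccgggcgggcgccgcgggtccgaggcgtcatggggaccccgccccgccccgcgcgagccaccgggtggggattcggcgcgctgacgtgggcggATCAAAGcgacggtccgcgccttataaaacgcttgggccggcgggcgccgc
Wnt5b, chr6:119449387-119449636, minus strand: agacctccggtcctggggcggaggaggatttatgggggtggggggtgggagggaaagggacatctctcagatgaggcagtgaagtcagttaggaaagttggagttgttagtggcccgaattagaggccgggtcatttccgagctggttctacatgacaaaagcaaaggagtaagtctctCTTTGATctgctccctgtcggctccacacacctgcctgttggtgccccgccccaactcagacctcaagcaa

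Among receptors, 4 of 10 Frizzled genes and 1 of 2 co-receptor genes rose, 41.7% of the 12 against 17.8% of all genes. In limma 0 of the 12 fell, against 14.9% of all genes, with 1 lower, Fzd5, at an unadjusted p under 0.05. The gene with the largest rise was Fzd3, a receptor of planar polarity and axon guidance. Fzd3 read 4.52, 4.32 and 4.44 in controls, under the array median, and 6.24, 5.76 and 6.00 in NICD1 kidneys, above it. The difference was 1.57 log2 (SE 0.13, adjusted p = 2.35e-05), a 2.97-fold rise. Fzd6, the receptor closest to Fzd3 in the family and with a role in hair and tissue polarity, read 6.57, 7.04 and 7.03 in controls and 8.09, 8.06 and 7.79 in NICD1 kidneys (1.10, SE 0.15, adjusted p = 0.00042).

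Fzd7, a receptor of stem and progenitor cells in several epithelia, read 6.40, 6.54 and 6.85 in controls and 8.25, 7.76 and 7.71 in NICD1 kidneys. This was a 2.48-fold rise (1.31 log2, SE 0.17, adjusted p = 0.000305), whereas Fzd1 and Fzd2, of the same subfamily, differed by -0.057 (adjusted p = 0.779) and 0.064 (adjusted p = 0.760). The intervals of the latter pair were -0.31 to 0.20 and -0.20 to 0.33 log2. Fzd4, a receptor of vascular endothelium that also binds the non-Wnt ligand norrin, rose from 7.80 ± 0.19 to 8.38 ± 0.18 (0.58, adjusted p = 0.00876). Endothelial markers moved the other way: of 7 measured, 0 rose, 4 fell (Tek, Kdr, Tie1 and Emcn) and 3 did not pass in limma, 0 were higher at an unadjusted p under 0.05, and their summed linear level was 964.1 to 986.8 in controls and 379.7 to 664.3 in NICD1 kidneys. Their part in the Fzd4 value was not tested.

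Lrp5, one of the 2 co-receptors of the canonical branch, read 6.95, 6.86 and 6.71 in controls and 7.69, 7.63 and 7.59 in NICD1 kidneys. The groups did not overlap and the difference was 0.79 (SE 0.10, adjusted p = 0.000314). Lrp6, the other co-receptor, read 8.97, 9.13 and 9.14 against 9.25, 9.47 and 9.33, also without overlap, but its difference of 0.27 did not pass (adjusted p = 0.0818). It passed after quantile normalization (0.48, adjusted p = 0.00468) and with array weights (0.30, adjusted p = 0.0420). The gene with the lowest receptor value in NICD1 relative to control was Fzd5, a receptor of canonical Wnts in epithelia, at 5.79 ± 0.10 against 5.44 ± 0.18 (-0.35, adjusted p = 0.0527). It was called lower after centring (-0.47, adjusted p = 0.0161) and after quantile normalization (-0.46, adjusted p = 0.0152), and also without the dimmest 40% of genes (adjusted p = 0.0388) and without NICD1 replicate 2 (-0.45, adjusted p = 0.0212), so the count of 0 falls among receptors depends on these choices. Fzd1, Fzd2, Fzd8, Fzd9 and Fzd10 had differences between -0.057 and 0.14, and Fzd10os differed by 0.013 (adjusted p = 0.956).

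**Figure D2:**
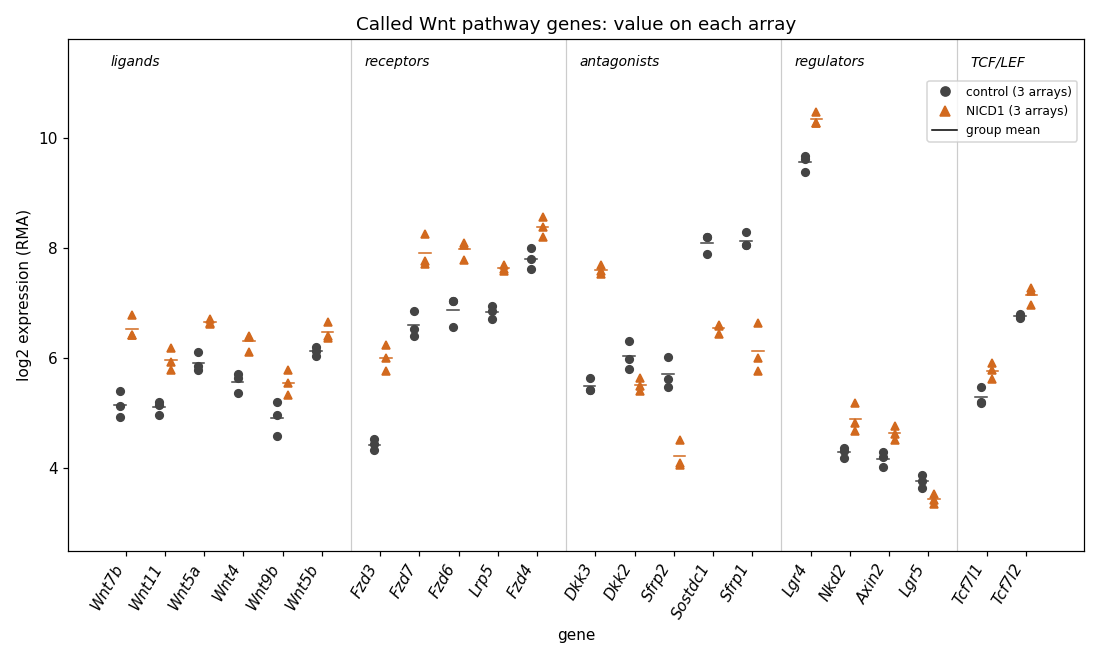
Log2 expression (vertical axis) on each of the 3 control arrays (circles) and 3 NICD1 arrays (triangles) for the 22 genes called changed (horizontal axis), with group means as short lines. In each of the 22 genes the 3 NICD1 arrays lie on one side of the 3 control arrays, and the 5 largest differences of means are those of Dkk3, Sfrp1, Fzd3, Sostdc1 and Sfrp2.

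Of the 10 secreted antagonists and their family members, 4 fell (40%, against 14.9% of all genes), 1 rose (10%, against 17.8%) and 5 did not pass. The called genes with the largest differences in both directions, Dkk3 and Sfrp1, were among them. Sfrp1, a secreted Frizzled-like decoy that binds Wnts, read 8.29, 8.06 and 8.06 in controls and 6.63, 6.00 and 5.77 in NICD1 kidneys. All NICD1 values were below all control values, with a difference of -2.00 log2 (SE 0.20, adjusted p = 5.87e-05), and its NICD1 arrays spread over a wider range than its controls. Its relative Sfrp2 read 5.48, 5.62 and 6.01 in controls and 4.06, 4.09 and 4.51 in NICD1 kidneys (-1.48, SE 0.17, adjusted p = 0.000135). Both fell in all 3 NICD1 arrays, and Sfrp2 ended under the array median after a 2.80-fold fall.

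Sostdc1, which binds Lrp5 and Lrp6 and also blocks BMP ligands, is made in the distal nephron. It read 8.20, 8.21 and 7.89 in controls and 6.58, 6.60 and 6.45 in NICD1 kidneys, a 2.95-fold fall (-1.56 log2, SE 0.12, adjusted p = 1.15e-05). Of 6 measured markers of Henle's loop and the distal tubule, 5 fell, by 2.38 (Slc12a3) to 5.88 log2 (Egf), and Umod rose by 0.32. Their summed linear level was 10740 to 11670 in controls and 6006 to 6263 in NICD1 kidneys. Umod, at 12.41 log2 in NICD1 kidneys, makes up most of the NICD1 sum, so the sum understates the falls of the other markers. The part of these markers' cells in the Sostdc1 value was not tested. Dkk2, which binds Lrp6 and can inhibit or weakly activate it, read 5.80, 6.31 and 5.99 in controls against 5.64, 5.49 and 5.39. Its fall of 0.53 log2 (adjusted p = 0.0177) was not called without control replicate 2 (-0.39, adjusted p = 0.0657), NICD1 replicate 2 (-0.52, adjusted p = 0.0521) or NICD1 replicate 3 (-0.47, adjusted p = 0.0539).

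Dkk3 was the antagonist family member that rose, and it had the largest difference of all 53 genes. It is a divergent Dickkopf protein that does not bind Lrp6 in the way Dkk1 does, and it is known as a product of stressed tubule epithelium in kidney disease. Dkk3 read 5.42, 5.64 and 5.41 in controls and 7.59, 7.68 and 7.53 in NICD1 kidneys. The spread within each group was small against the difference of 2.11 log2 (SE 0.11, adjusted p = 1.56e-06), a 4.32-fold rise, which ranked 166 among the rises of all genes. Dkk1, Dkk4, Sfrp4, Sfrp5 and Wif1 did not pass, with differences between -0.37 and 0.14. The lowest of these, Sfrp4, read 3.66, 3.35 and 3.72 against 3.27, 2.96 and 3.40, which overlap, with a difference of -0.37 (adjusted p = 0.0879). It passed after centring (-0.49, adjusted p = 0.0254) and with array weights (-0.425, adjusted p = 0.0477). It also passed with the replicate block (adjusted p = 0.0387) and without control replicate 2 (-0.484, adjusted p = 0.0496).

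Sfrp1, Sfrp2 and Wnt5a are also products of stroma. Of 9 fibroblast and pericyte markers, 6 rose, 0 fell and 3 did not pass in limma, with 1, Lum, lower at an unadjusted p under 0.05. Their summed linear level ranged from 909.8 to 1140 in controls and from 2271 to 3688 in NICD1 kidneys. The collagens Col1a1, Col1a2 and Col3a1 rose by 2.96, 2.20 and 2.01 log2, while Dcn, a proteoglycan of resident fibroblasts, differed by -0.77 (adjusted p = 0.231) and Pdgfra by -0.074 (adjusted p = 0.839). Sfrp1 and Sfrp2 moved against the collagens and Wnt5a with them, while Dcn, Pdgfra and Lum (-0.30) had negative differences. The part of stromal content in these values was not tested.

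Of 8 receptor turnover genes and cytoplasmic regulators, 3 rose (37.5%), 1 fell (12.5%) and 4 did not pass, with differences between -0.33 and 0.78 log2. Of all genes, 17.8% rose and 14.9% fell. Lgr4, a receptor for R-spondins that keeps Frizzled on the cell surface, read 9.38, 9.62 and 9.67 in controls and 10.26, 10.48 and 10.27 in NICD1 kidneys (0.78, SE 0.12, adjusted p = 0.00072). Its relative Lgr5, a canonical target and stem cell marker in gut, lay under the array median on all arrays at 3.76 ± 0.12 and 3.43 ± 0.094 (-0.33, adjusted p = 0.0423). The Lgr5 call was lost without control replicate 1 (-0.27, adjusted p = 0.131), control replicate 2 (-0.33, adjusted p = 0.114), NICD1 replicate 1 (-0.32, adjusted p = 0.0838) or NICD1 replicate 2 (-0.28, adjusted p = 0.137). With the replicate block it was lost as well (adjusted p = 0.0874). The ubiquitin ligases Rnf43 and Znrf3, which remove Frizzled from the surface and are induced by canonical signalling, differed by 0.31 (adjusted p = 0.0825) and 0.063 (adjusted p = 0.768). Rnf43 was called higher with array weights (0.35, adjusted p = 0.0386) and without NICD1 replicate 3 (0.40, adjusted p = 0.0351).

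Axin2, the feedback scaffold often used as a readout of canonical signalling, read 4.30, 4.19 and 4.02 in controls and 4.51, 4.76 and 4.63 in NICD1 kidneys. The groups did not overlap, but all values lay under the array median and the rise was 1.38-fold (0.46 log2, SE 0.12, adjusted p = 0.0127). It was not called without control replicate 3 (0.39, adjusted p = 0.0563) or NICD1 replicate 2 (0.40, adjusted p = 0.0517). Nkd2, which binds Dishevelled and lowers Wnt signalling, read 4.31, 4.37 and 4.18 in controls and 5.18, 4.81 and 4.68 in NICD1 kidneys (0.60, SE 0.14, adjusted p = 0.00849). Nkd1, its paralogue and the more widely used canonical target, differed by 0.15 (95% interval -0.075 to 0.37, adjusted p = 0.325). The scaffold Axin1, which is not induced by the pathway, differed by 0.16 (adjusted p = 0.387).

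Of the 3 TCF/LEF factors, 2 rose by small amounts. Tcf7l2, the main beta-catenin partner in many epithelia, went from 6.76 ± 0.044 to 7.15 ± 0.17 (0.39, adjusted p = 0.0228), and Tcf7l1, mostly a repressor of target genes, from 5.28 ± 0.17 to 5.77 ± 0.14 (0.48, adjusted p = 0.0142). The Tcf7l2 call was lost in 5 of the 6 fits that leave out an array, all but that without NICD1 replicate 3, and after centring (0.27, adjusted p = 0.106). The Tcf7l1 call was lost without control replicate 2 (0.44, adjusted p = 0.0614) or 3 (0.43, adjusted p = 0.0604). Lef1, an activator that is itself a canonical target and is also made by lymphocytes, read 4.87, 4.76 and 4.62 in controls and 4.37, 4.51 and 4.58 in NICD1 kidneys. Its difference of -0.26 did not pass (adjusted p = 0.105) but did so after centring (-0.39, adjusted p = 0.0206) and quantile normalization (-0.34, adjusted p = 0.0260). Of 6 lymphocyte markers, 2 rose (Cd8a and Cd3e), 1 fell (Ms4a1) and 3 did not pass. On all arrays 5 of the 6 lay under the array median. Their part in the Lef1 value was not tested.

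The window before the start of Tcf7l1 holds the Rbpj form GTGGGAA, and it is shown as the single called gene with that motif among those with a promoter entry. The motif was found in 2 of the 42 windows of the 53 genes (4.76%), near the 5.42% of all windows. The second lies before the start of Wnt9a, which differed by 0.011 (adjusted p = 0.975). In Tcf7l1 the motif is read as TTCCCAC, in capitals, because it lies on the opposite strand, 55 bases before the start. No match in the other windows says only that these letters are absent there.
Tcf7l1, chr6:72789046-72789295, minus strand: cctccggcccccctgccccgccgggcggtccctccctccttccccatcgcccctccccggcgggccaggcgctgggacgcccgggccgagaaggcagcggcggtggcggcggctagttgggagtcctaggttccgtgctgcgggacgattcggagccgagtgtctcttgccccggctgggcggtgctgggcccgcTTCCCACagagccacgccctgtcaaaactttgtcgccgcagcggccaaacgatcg

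The NICD1 arrays were not equal. Among the 17 genes that rose, NICD1 array 1 held the highest value for 11, or 64.7%, and the same array held the highest value for 56.7% of all genes called higher. The median deviation of these 17 genes from the control mean was 0.84, 0.71 and 0.75 log2 on NICD1 arrays 1 to 3, and that of the 5 genes that fell was -1.50, -1.50 and -1.20. The median SD within the group was 0.13 in controls and 0.17 in NICD1 kidneys over the 53 genes, and 0.12 and 0.14 over all genes.

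Other genes of the pathway were read from 4 lists, beside 17.8% of all genes called higher and 14.9% called lower. Of 19 genes for Wnt secretion and extracellular modulation, 2 rose (10.5%), 4 fell (21.1%) and 13 did not pass, with a median of -0.041. Gpc3, a glypican that binds Wnts and Hedgehog and is abundant in the embryonic kidney, rose from 6.10 ± 0.12 to 9.51 ± 0.29 (3.41 log2, SE 0.15, adjusted p = 7.15e-07), whereas its relative Gpc4 fell from 9.90 ± 0.059 to 8.31 ± 0.25 (-1.60, adjusted p = 1.98e-05). The enzymes that inactivate Wnt proteins also fell: Notum, which removes the lipid, from 6.48 ± 0.077 to 5.14 ± 0.22 (-1.34, adjusted p = 4.34e-05), and Trabd2b, a protease, from 6.66 ± 0.17 to 5.77 ± 0.31 (-0.89, adjusted p = 0.00225). Igfbp4 fell by 0.79 log2 and Apcdd1, a membrane inhibitor that binds Wnts and Lrp5, rose by 0.55 (adjusted p = 0.0222). The Apcdd1 call was lost after centring (0.42, adjusted p = 0.0558), after quantile normalization, and without control replicate 2, NICD1 replicate 2 or NICD1 replicate 3. Genes needed to export Wnts did not pass, with Wls at -0.041 (adjusted p = 0.856) and Porcn at -0.20 (adjusted p = 0.198).

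Of 32 genes of the cytoplasmic and nuclear canonical pathway, 13 rose (40.6%, against 17.8% of all genes), 1 fell (3.12%, against 14.9%) and 18 did not pass (median 0.15). Ctnnb1, which encodes beta-catenin, rose from 9.34 ± 0.094 to 10.004 ± 0.013 (0.66, SE 0.097, adjusted p = 0.000648). Its co-activator Bcl9l rose by 1.18 log2, and the casein kinases Csnk1e and Csnk1g1 by 1.35 and 0.91. The other genes that rose were Tle3 (0.72), Bcl9 (0.59), Tnks (0.45), Gsk3b (0.43), Apc (0.42), Dvl2 (0.42), Dact2 (0.36), Pygo2 (0.34) and Csnk1a1 (0.32). They include Apc, part of the complex that destroys beta-catenin, so genes of opposed function rose together. Btrc, which marks beta-catenin for degradation, was the gene that fell (-0.66, adjusted p = 0.00111). After centring 7 rose and 5 fell, and 8 rose without control replicate 2, control replicate 3 or NICD1 replicate 2. Over all genes 2594 rose and 3990 fell after centring, against 3551 and 2978 in the main fit. Without each of those arrays in turn, 2816, 2898 and 3072 of all genes rose. These are RNA levels, and beta-catenin activity is set largely at the protein level.

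Of 23 planar polarity and non-canonical genes, 8 rose (34.8%, against 17.8% of all genes), 2 fell (8.7%, against 14.9%) and 13 did not pass (median 0.18). The polarity cadherins Celsr2 and Celsr1 rose by 1.68 and 1.10 log2 and the formin Daam1, which binds Dishevelled, by 1.58. The genes that fell were Plcb1, a phospholipase of calcium signalling (-2.11, adjusted p = 2.75e-06), and Invs, a cilium protein that shifts Wnt signalling toward the non-canonical branch (-0.95, adjusted p = 0.000173). The count of rises was 5 without control replicate 2 or control replicate 3, where 2816 and 2898 of all genes rose, against 3551 in the main fit. The receptors Ror1, Ror2 and Ryk, which bind Wnt5a, differed by 0.18, -0.099 and 0.070 and did not pass.

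Of 18 other genes that canonical Wnt signalling can induce, 7 rose (38.9%, against 17.8% of all genes), 2 fell (11.1%, against 14.9%) and 9 did not pass (median 0.14). The 4 with the lowest p were Jag1 (4.05 log2), Myc (2.20), Cd44 (3.67) and the cyclin Ccnd1 (1.97). Jag1, Myc and Ccnd1 are also known Notch targets and Cd44 marks injured tubules. The part of Wnt, Notch or injury in these rises was not tested. The genes that fell were Id2 (-0.37, adjusted p = 0.0179) and Prox1 (-0.51, adjusted p = 0.0226); neither was called without control replicate 1 (0 fell) or NICD1 replicate 2 (0 fell), with 2 lower at an unadjusted p under 0.05 in limma each time. Id2 was not called without control replicate 3 (-0.36) or after quantile normalization (-0.19), nor Prox1 without control replicate 2 (-0.40). Sp5, another canonical target, differed by -0.23 (adjusted p = 0.187). It was called lower after centring (-0.35, adjusted p = 0.0440) and quantile normalization (-0.32, adjusted p = 0.0481). The further targets Ascl2 and Tnfrsf19 differed by -0.056 (adjusted p = 0.844) and 0.17 (adjusted p = 0.303).

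**Figure D3:**
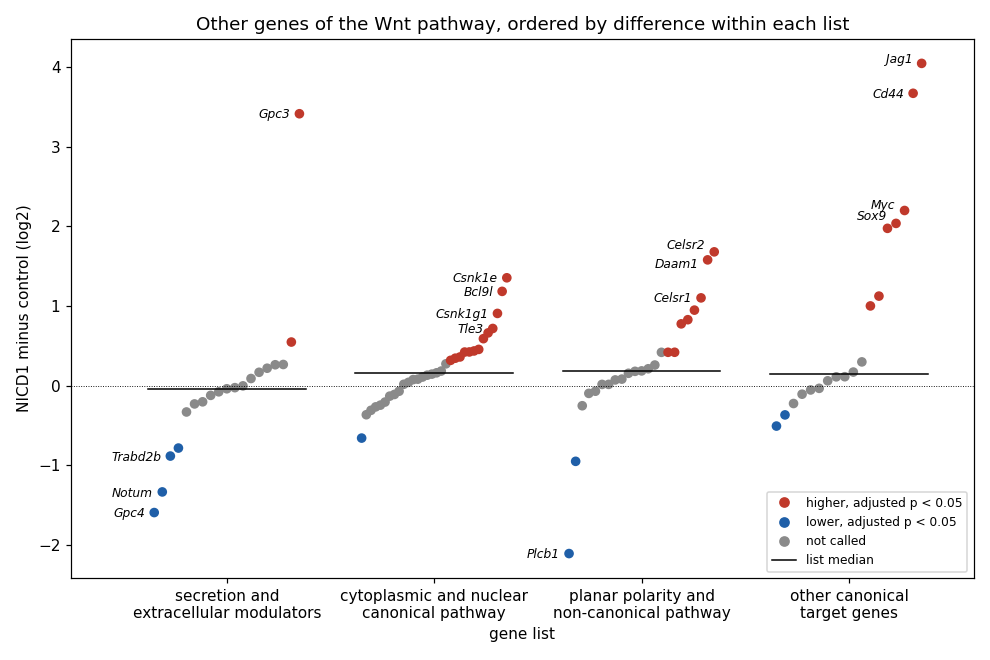
Difference between NICD1 and control kidneys (log2, vertical axis) for genes of 4 lists of the wider Wnt pathway (horizontal axis), each point a gene ordered by its difference, with the list median as a line and colour for genes called at adjusted p under 0.05. The list medians lie between -0.041 and 0.18, and Gpc3 and Jag1 stand at 3.41 and 4.05 above the rest of their lists.

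Marker RNA of other cell populations also differed between the groups, except that podocyte and parietal markers were mixed. Of 8 proximal tubule markers, 8 fell, with a summed linear level of 19500 to 20010 in controls and 1400 to 2774 in NICD1 kidneys. Of 5 intercalated cell markers, 5 fell (512.0 to 612.4 against 106.4 to 117.3). Of 7 macrophage and dendritic cell markers, 6 rose (329.1 to 354.6 against 1476 to 2862), and of 5 markers of cycling cells, 5 rose (272.6 to 391.8 against 1164 to 1599). Of 5 podocyte and parietal markers, 2 rose and 2 fell. Among the kidney markers, Umod stood at 12.08 ± 0.11 and Lrp2 at 11.82 ± 0.051 in controls, far above the array median, while the podocyte gene Nphs1 was close to it at 5.49 ± 0.18 and Synpo below it at 4.78 ± 0.14. The part of these populations in the Wnt pathway values was not tested.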

How the data were processed

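Whole-kidney RNA of 3 control and 3 NICD1 samples was measured on 6 arrays. Per the labels' protocols, the authors normalized raw array files in GeneSpring with RMA16, and the deposited values are log2 expression per probe set, between 1.40 and 13.67 on single arrays. The software version, array batches and scan dates are not given in the sources used here. Of 34760 probe sets, 6573 numbered below the first annotated one were left out as control features. Gene symbols came from the platform annotation, and each gene was represented by its single-symbol probe set with the highest mean, giving 19937 genes. All 53 members matched the same symbol in RefSeq by Entrez identifier.

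The group comparison used limma 3.58.1 (R 4.3.3; two-sided, moderated variances, no covariate), and called at an adjusted p under 0.05 after Benjamini-Hochberg adjustment over all genes. The fit was tested on simulated arrays. The precision is limited by 3 arrays per group. The members and lists were chosen with earlier results of these data known. Named with values were all called members, Axin2, Lef1, Lgr5, Nkd1, Rnf43 and Znrf3, the 6 uncalled members with the lowest p, the member with the highest mean in each role, the 4 called genes with the lowest p of each list, Ctnnb1 and Notch1. Igfbp4, Apcdd1, Btrc, Invs, Id2, Prox1, Sp5, Wls, Porcn, Ror1, Ror2, Ryk, Ascl2, Tnfrsf19, Fzd1, Fzd2, Axin1, Dkk1, Wnt9a and the named cell type markers were added after their values were seen. The same holds for Tle3, Bcl9, Tnks, Gsk3b, Apc, Dvl2, Dact2, Pygo2 and Csnk1a1. Levels of different probe sets were not tested against each other, but they were added in sums, ranked within roles and set against the array median. Summed levels are sums of 2 to the power of the log2 values. Alternatives were a block for the replicate number, omission of single arrays, quantile normalization, centring, array weights, a variance model with trend and robust fitting, averaging over probe sets, dropping the dimmest 40% of genes, and a threshold of 0.01.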

Additional observations from a re-analysis of the deposited data

How the results depend on the processing

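Of the 22 called members, 15 were called in the same direction under every alternative except the threshold of 0.01 and the filter on dim genes; the others were Axin2, Dkk2, Lgr5, Tcf7l1, Tcf7l2, Wnt5b and Wnt9b. The filter on dim genes left Axin2, Lgr5 and Nkd2 untested. Without 1 array each, 13 to 17 members were called higher and 4 to 5 lower. Over all genes these fits called 2816 to 3488 higher and 2459 to 2811 lower, against 3551 and 2978 in the main fit. Members called lower were 8 after centring and 3 at a threshold of 0.01, while all genes called lower numbered 3990 and 2188. Znrf3 turned to -0.0493 after quantile normalization and -0.0601 after centring, and Fzd10os to -0.0179 and -0.11. Without 1 array each, Znrf3 lay between -0.000123 and 0.161 and Fzd10os between -0.0919 and 0.109. Neither was called in any of these fits.

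Counts over all genes moved with the fit too. Those called higher and lower were 3406 and 3161 after quantile normalization, 2594 and 3990 after centring, and 2398 and 2188 at a threshold of 0.01. They were 3290 and 2866 without the dimmest genes, 3534 and 2990 with trended and robust variance, and 3862 and 3227 with array weights. For secretion and extracellular modulators, 1 was called higher after quantile normalization, after centring and at a threshold of 0.01, and 1 to 2 without 1 array each. For the canonical pathway list, 7 were called higher after centring and 7 at the threshold of 0.01, with 8 to 11 without 1 array each. Calls of lower in that list numbered 2 after quantile normalization, 5 after centring, 2 without the dimmest genes, 2 with trended and robust variance and 4 with array weights, and 1 to 2 without 1 array each. For planar polarity, 5 were called higher at the threshold of 0.01 and 5 to 7 without 1 array each. Of the other targets, 1 was called lower without the dimmest genes, 0 at the threshold of 0.01 and 0 to 2 without 1 array each. Where 0 were called, 2 were lower at an unadjusted p under 0.05 in limma. The cause was not tested.

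Same-numbered samples did not deviate together, with correlations over genes of -0.069, -0.012 and -0.070 for replicates 1 to 3, so the shared number is not evidence of pairing. With the replicate block 16 members were called higher and 5 lower, and over all genes 3219 higher and 2762 lower. RMA compression and 3 arrays per group limit what can be seen in dim genes.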
